A study of Mus musculus with 40 samples.

Results

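Apoa1, Apoc3, Apoa4 and Apoa5 are 4 neighbouring apolipoprotein genes on mouse chromosome 9, and they were picked by gene symbol from a table of 20593 genes measured in fetal liver. The livers came from C57BL/6 fetuses of C57BL/6J dams on gestational day 18.5. The dams were fed for 13 weeks before breeding and then through pregnancy on a western diet with 45% of its energy from fat and 10 mg/kg folic acid (WDF), a western diet with 2 mg/kg (WD), a control diet with 10% of its energy from fat and 10 mg/kg folic acid (CDF), or the control diet with 2 mg/kg (CD). Each diet had 5 libraries of female and 5 of male fetuses, 40 libraries in all. Libraries are named by diet, sex and number. No allele was altered in any group, and the labels give no litter, so siblings from the same pregnancy cannot be told from unrelated fetuses and p-values measure the spread between libraries. Values are the authors' normalized counts (read counts divided by a size factor for each library, as judged from the values), and log2 differences are on the log2(value + 1) scale. The 4 genes were singled out with their levels and their co-variation in these libraries already known. Their levels, correlations and group differences are therefore given as a description, and nothing is read from the p-values that a deposited table lists for them.

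Apolipoproteins are the protein part of the particles that carry fat and cholesterol in blood. ApoA-I is the main protein of high-density lipoprotein and accepts cholesterol from cells. ApoC-III slows the clearance of triglyceride-rich particles by inhibiting lipoprotein lipase, while ApoA-V, made by the liver in small amounts, promotes that clearance. ApoA-IV is made mostly by the small intestine and, in mice, also by the liver, where the membrane-bound transcription factor CREBH (gene Creb3l3) is known to raise it. Late fetal liver takes up fat from the placenta and exports lipoproteins shortly before birth.

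Hepatocyte genes were high in 38 of the 40 libraries, and these 38 are used in every group value. In the other two, CDF female 5 and CD female 4, Apoa1 stood at 585 and 783, Apoc3 at 12.9 and 2.22, Apoa4 at 110 and 4.57, and Apoa5 at 2.7 and 0. Sftpc, the surfactant protein C gene that marks lung epithelium, reached 67014 and 101239 in them. Among the 38, Alb, the serum albumin gene, lay between 641907 and 1496610, and Sftpc was above 1000 in 6, with a highest value of 30176 in CD female 5. CDF female 4 also stood apart, with 24797 of Sftpc and the highest normalized total, 27.8 in units of 1000000 counts beside a median of 17.0. Differences between groups that rest most on these libraries are given with and without them. Bulk RNA cannot tell fewer cells of a type from less RNA per cell.

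Within 43340 bases of the mm10 build, Apoa1 (ENSMUSG00000032083.8) occupies chr9:46228580-46230466 on the plus strand, Apoc3 (ENSMUSG00000032081.10) chr9:46232933-46235636 on the minus strand, Apoa4 (ENSMUSG00000032080.6) chr9:46240696-46243459 on the plus strand and Apoa5 (ENSMUSG00000032079.12) chr9:46268633-46271919 on the plus strand. Apoa1 and Apoc3 therefore end towards each other. Sik3, a kinase gene, lies before Apoa1, and Zpr1, which encodes a zinc-finger protein, follows Apoa5. The GENCODE annotation places the antisense gene Gm47544 inside Apoa5 (median normalized count 1.76) and Gm10680 and Gm47528 across Apoa4, and those across Apoa4 were not analysed here. The libraries keep strand, per the labels' protocols, but whether counting used it is not stated in them. The promoter windows of 3 of the 4 genes, 250 bases before to 50 after the RefSeq start on GRCm38.p6, are printed. They are shown because the 4 genes lie side by side and yet did not vary as a block. RefSeq windows numbered 2 for Apoa5, and 1 of them is printed. Capitals mark matches to motifs searched on both strands: TATAAA, the E-box CACGTG, the forkhead core TGTTTNC, the nuclear receptor site AGGTCA and the HNF4-type site CAAAGTNCA.
Apoa1, plus strand, chr9:46228380-46228679: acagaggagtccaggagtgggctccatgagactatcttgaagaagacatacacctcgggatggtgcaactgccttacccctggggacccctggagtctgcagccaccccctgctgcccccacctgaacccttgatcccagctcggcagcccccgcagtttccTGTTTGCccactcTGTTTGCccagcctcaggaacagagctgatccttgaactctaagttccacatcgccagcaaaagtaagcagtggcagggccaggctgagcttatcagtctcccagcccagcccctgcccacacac
Apoa4, plus strand, chr9:46240594-46240893: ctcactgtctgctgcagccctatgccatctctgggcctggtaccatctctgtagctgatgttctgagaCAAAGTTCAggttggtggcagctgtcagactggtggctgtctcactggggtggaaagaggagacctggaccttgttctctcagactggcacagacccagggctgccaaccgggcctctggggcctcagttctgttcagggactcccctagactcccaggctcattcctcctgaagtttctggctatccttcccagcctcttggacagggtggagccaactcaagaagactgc
Apoa5, plus strand, chr9:46268358-46268657: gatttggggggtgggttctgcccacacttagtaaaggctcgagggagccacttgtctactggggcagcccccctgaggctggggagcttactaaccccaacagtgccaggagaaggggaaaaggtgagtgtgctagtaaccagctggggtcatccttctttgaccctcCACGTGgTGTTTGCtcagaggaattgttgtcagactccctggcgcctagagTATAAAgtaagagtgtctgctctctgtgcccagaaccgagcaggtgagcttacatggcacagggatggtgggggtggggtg
The Apoa1 window held the forkhead core at 88 and 75 bases before the start, as TGTTTGC both times. Apoa4 had only the HNF4-type site, CAAAGTTCA, at 182 bases before it. In the Apoa5 window TATAAA stood at 31, the forkhead core at 75 and the E-box at 82 bases before the start. Of 32851 RefSeq promoter windows of the same length, 13.6% held TATAAA, 7.15% the E-box, 20.5% the forkhead core, 16.3% AGGTCA and 1.41% the HNF4-type site. These are letter matches and not measured binding sites. Apoc3 is named only.

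The 4 genes differed widely in level, and the most abundant varied least. Divided by exon length, the median over 38 libraries was 120962 normalized counts per 1000 bases for Apoa1, 963 for Apoc3, 172 for Apoa5 and 56.7 for Apoa4. Apoa1 alone made up most of the cluster's 0.682 to 1.43% of all normalized counts. The highest library exceeded the lowest 3.67-fold for Apoa1, 24.6-fold for Apoc3, 75.9-fold for Apoa5 and 81.4-fold for Apoa4. Within groups the SD on the log2 scale was 0.34 for Apoa1, which put it at the 51st percentile of the 15377 genes tested (those with at least 10 normalized counts in at least 5 libraries). For Apoc3 it was 0.85, at the 94th percentile. Apoa4 stood at 1.07 and Apoa5 at 1.21, at the 97th and 98th percentiles. Differences between the 8 groups took 25.1% of the variance of Apoa1, 30.7% of Apoc3, 42.1% of Apoa4 and 31.9% of Apoa5, beside 18.5% for the median gene. Means of so few libraries take part of the variance even where groups do not differ, so these shares are not the part due to diet and sex.

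Apoa1, the high-density lipoprotein gene, was abundant and narrow in range. WDF females had 110935, 121988, 216385, 116597 and 158981 normalized counts, against 166027, 213902, 127038, 226982 and 163836 in WD females. CDF females had 131137, 179326, 133373 and 391872, against 135522, 112197, 131741 and 151605 in CD females. In both pairs of female groups the values overlapped, and the highest value of all was CDF female 4. WDF males held 175867, 209720, 209244, 176354 and 166279, against 165986, 143924, 131794, 107844 and 114459 in WD males. These male groups did not overlap, although the lowest WDF male (166279) was close to the highest WD male (165986). CDF males held 209165, 168408, 151759, 106693 and 113188, against 132204, 147412, 132479, 244717 and 147379 in CD males, and overlapped. Group means ran from 208927 ± 123969 (SD, n = 4) in CDF females to 132766 ± 16193 (SD, n = 4) in CD females, and no 2 neighbours in that order differed by more than the larger of their SDs.

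Apoc3, the gene of the lipase inhibitor, was lowest in WD males. WDF males had 1020, 2139, 4581, 1098 and 1074 normalized counts, against 764, 352, 359, 718 and 530 in WD males. Every WDF male lay above every WD male, although 2 WDF males made up most of the mean difference. WDF females had 629, 231, 2549, 514 and 1310, against 1078, 1499, 708, 1567 and 351 in WD females, and there the groups overlapped over most of their range. CDF females held 952, 1772, 1141 and 5685, against 892, 413, 690 and 1395 in CD females. CDF males had 2043, 744, 1001, 436 and 495, against 847, 1365, 484, 2520 and 1082 in CD males. Both pairs of control-diet groups overlapped. Means ran from 2388 ± 2226 (SD, n = 4) in CDF females to 544 ± 194 (SD, n = 5) in WD males, with no gap between neighbours above the larger SD.

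Apoa4, the mainly intestinal apolipoprotein gene, was highest in CDF females. They had 1421, 575, 444 and 196 normalized counts, against 83.7, 48.1, 138 and 105 in CD females. WDF females had 70.2, 23.7, 132, 59.8 and 101, against 75.2, 212, 45.8, 68.5 and 17.5 in WD females. CDF females thus lay above all CD and all WDF females, whereas WDF and WD females overlapped. WDF males held 76.7, 101, 474, 61.8 and 118, against 52.4, 226, 466.4, 964 and 98.3 in WD males. CDF males held 138, 49.6, 384, 46.1 and 145, against 83.4, 118, 31.6, 236 and 107 in CD males. Male groups overlapped in both pairs, and single libraries, above all WD male 4, reached the level of the CDF females. The order of means ran from 659 ± 532 (SD, n = 4) in CDF females to 77.5 ± 41.4 (SD, n = 5) in WDF females, again with no gap between neighbours above the larger SD.

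Apoa5, whose product promotes triglyceride clearance, had the widest spread within groups. WDF males held 606, 795, 1886, 891 and 1431 normalized counts, against 404, 72.5, 127, 1756 and 2339 in WD males. CDF males held 2835, 868, 375, 1343 and 385, against 328, 385, 209, 177 and 236 in CD males. CDF and CD males overlapped only by the 2 lowest CDF males and the highest CD male, and WD males covered the whole range of WDF males. WDF females had 597, 41.3, 525.9, 438 and 431, against 554, 429, 225, 591 and 46.6 in WD females. CDF females had 538, 387, 3133 and 1024, against 454, 184, 163 and 346 in CD females. Female groups overlapped in both pairs. The 3 highest group means were 1270 ± 1271 (SD, n = 4) in CDF females, 1161 ± 1017 (SD, n = 5) in CDF males and 1122 ± 525.5 (SD, n = 5) in WDF males. All 3 were from dams on 10 mg/kg, although the CDF female median was 781. WDF females, also on 10 mg/kg, averaged 407 ± 215 (SD, n = 5), below 940 ± 1040 (SD, n = 5) in WD males on 2 mg/kg. The lowest mean was 267 ± 86.6 (SD, n = 5) in CD males.

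**Figure D1:**
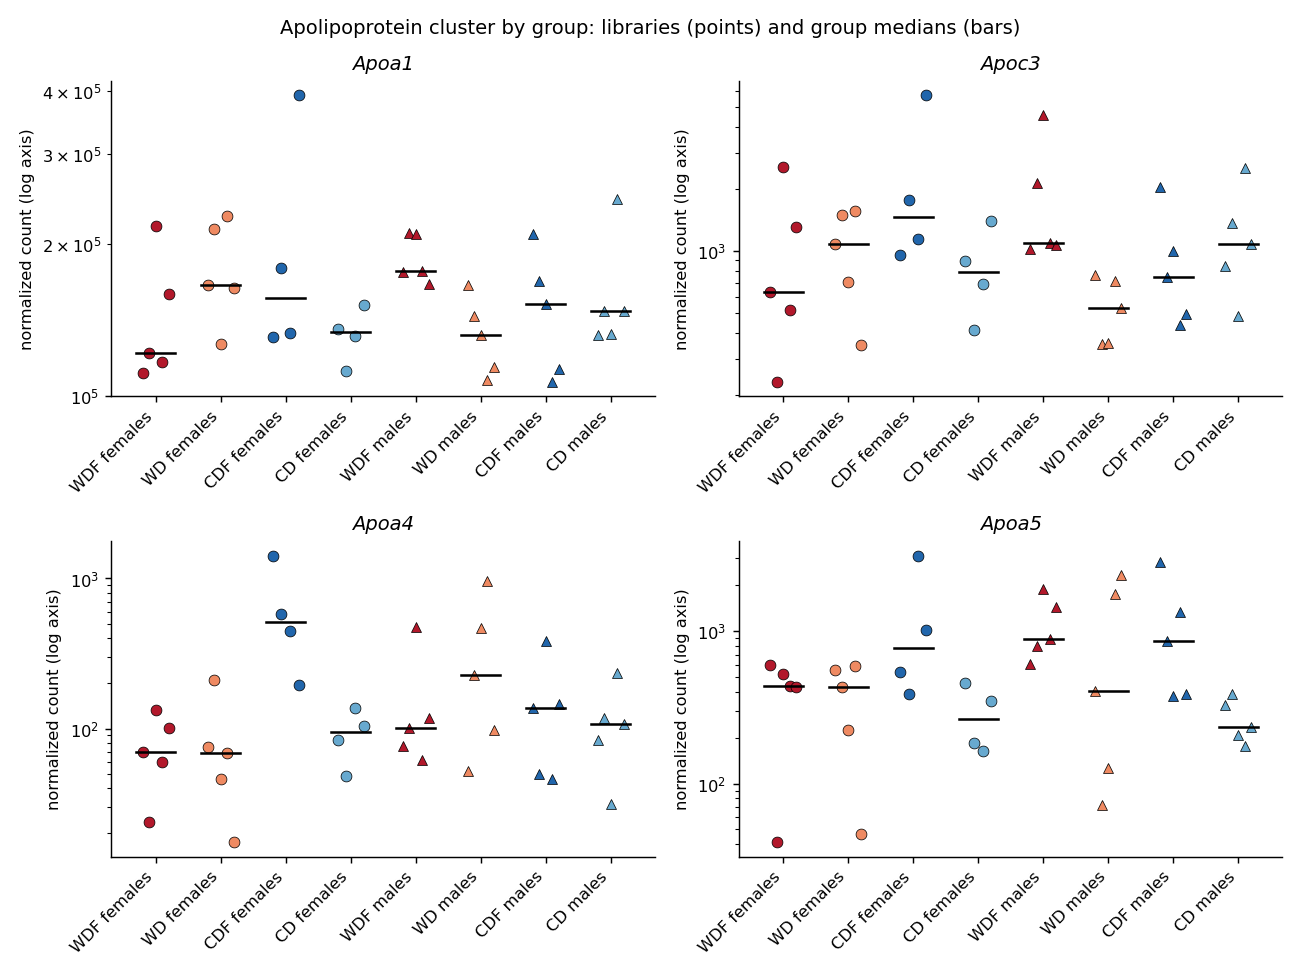
Normalized counts (log axis) of the 4 genes in each of the 38 libraries by group, with WDF, WD, CDF and CD females on the left and males on the right; points are libraries and bars are group medians. Apoc3 and Apoa1 of WDF males lie above WD males, and Apoa4 of CDF females lies above CD females.

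On the log2 scale, each difference is given with its standard error (SE) from limma, fitted over all 15377 genes with 1 mean per group. In males on the western diet, Apoc3 was higher by 1.66 ± 0.56 and Apoa1 by 0.51 ± 0.24 in WDF than in WD, Apoa5 differed by 1.2 ± 0.80 and Apoa4 by -0.85 ± 0.70. On the control diet, the CDF minus CD difference of females was 2.55 ± 0.79 for Apoa4, 1.78 ± 0.89 for Apoa5, 1.2 ± 0.62 for Apoc3 and 0.50 ± 0.27 for Apoa1. For CDF minus CD males it was 1.75 ± 0.80 for Apoa5, 0.23 ± 0.70 for Apoa4, -0.44 ± 0.56 for Apoc3 and -0.11 ± 0.24 for Apoa1. WDF minus WD females gave -0.33 ± 0.24 for Apoa1, -0.27 ± 0.56 for Apoc3, 0.12 ± 0.70 for Apoa4 and 0.15 ± 0.80 for Apoa5, with no difference as large as 2 SE. The fat contrast at 10 mg/kg in females, WDF minus CDF, was -2.93 ± 0.75 for Apoa4, -1.58 ± 0.85 for Apoa5, -1.26 ± 0.59 for Apoc3 and -0.42 ± 0.25 for Apoa1. It shares its CDF libraries with the CDF against CD contrast, so the high CDF values enter both. Without CDF female 4 and CD female 5, WDF minus CDF females was -3.39 for Apoa4, -1.52 for Apoa5, -0.71 for Apoc3 and -0.06 for Apoa1. At 2 mg/kg, WD minus CD, the largest were 1.21 ± 0.70 for Apoa4 and -1.07 ± 0.56 for Apoc3, both in males. Single libraries moved several of these values by more than 1.5 times. Leaving out WD male 2 brought Apoa5 in WDF minus WD males to 0.60, and leaving out WD male 4 brought Apoa4 to -0.32 there and to 0.68 in WD minus CD males. Apoa5 in CDF minus CD females was 1.19 without CDF female 3, Apoa5 in WDF minus CDF females was -0.87 without WDF female 2, and Apoc3 in CDF minus CD males was -0.14 without CD male 4.

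No member passed an adjusted p of 0.05 (Benjamini-Hochberg over all genes) in limma in any of the 8 comparisons between 2 groups. The background was 0.0% in each, since limma called 0 of 15377 genes in all 8, with 221 to 1354 genes at an unadjusted p under 0.05. In WDF against WD males, 206 genes (1.34%) were higher without overlap of libraries, as Apoc3 and Apoa1 were. In CDF against CD females it was 219 genes (1.42%), Apoa4 among them, and in WDF against CDF females 75 genes (0.488%) were lower without overlap, again with Apoa4. Since the 4 genes were chosen with these contrasts known, nothing is read from those counts. Averaged over diets or sexes, 45% against 10% fat had 7 called genes (0.0455%), females against males had 9 (0.0585%) and 10 against 2 mg/kg folic acid had 0 (0.0%, with 359 at an unadjusted p under 0.05), and no member was among them. Apoa5 had the largest averaged folic acid difference of the 4, 1.23 ± 0.41, beside 0.55 ± 0.29 for Apoc3, 0.51 ± 0.36 for Apoa4 and 0.15 ± 0.12 for Apoa1.

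The differences of effects were tested in the same fit, and limma called 0 genes (0.0%) in each of 6, with 903 to 1983 genes at an unadjusted p under 0.05. The folic acid effect of males was larger on the western than on the control diet by 2.11 ± 0.79 for Apoc3 and by 0.61 ± 0.34 for Apoa1, and differed by -0.51 ± 1.13 for Apoa5 and -1.09 ± 1.00 for Apoa4. In females the same difference was -0.83 ± 0.36 for Apoa1, -1.50 ± 0.84 for Apoc3, -2.43 ± 1.06 for Apoa4 and -1.64 ± 1.20 for Apoa5, so its sign was opposite to that of males in Apoa1 and Apoc3 and the same in Apoa4 and Apoa5. Without CDF female 4 and CD female 5 the female values were -0.54 for Apoa1 and -1.24 for Apoc3. With the 32 libraries of at most 1000 Sftpc, where CDF females 1 and 3 alone stand for their group, they were -0.30 and -0.79. The fat effect at 10 mg/kg differed between females and males by -3.05 ± 1.03 in Apoa4 and -2.29 ± 0.81 in Apoc3. Without CDF female 4 and CD female 5 these were -3.51 and -1.75, and with the 32 libraries -3.73 and -1.40. When limma gave each library a weight by its quality, Apoc3 passed for WDF against WD males (background 4.04%), for the western against control difference in males (background 2.58%) and for the sex difference of the folic acid effect on the western diet (background 3.77%), as did Apoa1 in that last one. Without that weighting, and under the other settings tried, neither gene passed in these comparisons.

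The submitters' own comparisons of folic acid doses list some of the same genes. In the authors' deposited table for WDF against WD males, Apoc3 has a log2 fold change of 1.69 (adjusted p = 0.00147, 24th by p) and Apoa1 one of 0.39 (adjusted p = 0.0461), among 203 genes called (1.48%). The authors' deposited table for CDF against CD females gives Apoa4 2.59 (adjusted p = 0.00208) as its second gene by p, after Fabp2, the intestinal fatty acid carrier gene (log2 fold change 1.69, adjusted p = 0.00069), and calls 4 genes (0.0216%). For CDF against CD males, the authors' deposited table has Apoa5 at 1.89 (adjusted p = 0.0258, rank 5 by p) among 7 called (0.0437%). No gene is called for WDF against WD females in the authors' deposited table (0.0%). Each of the 4 genes is thus called in 1 of those tables only. Of the members not called, Apoa5 has a log2 fold change of 1.72 (adjusted p = 0.771) and Apoc3 one of 0.0094 in CDF against CD females in the authors' deposited table. The second is far from the limma difference of 1.2, whereas 2.59 for Apoa4 and 1.72 for Apoa5 are close to the limma values of 2.55 and 1.78. How the deposited fold changes were estimated is not stated. The value near 0 for Apoc3 is therefore not read as the absence of a difference.

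**Figure D2:**
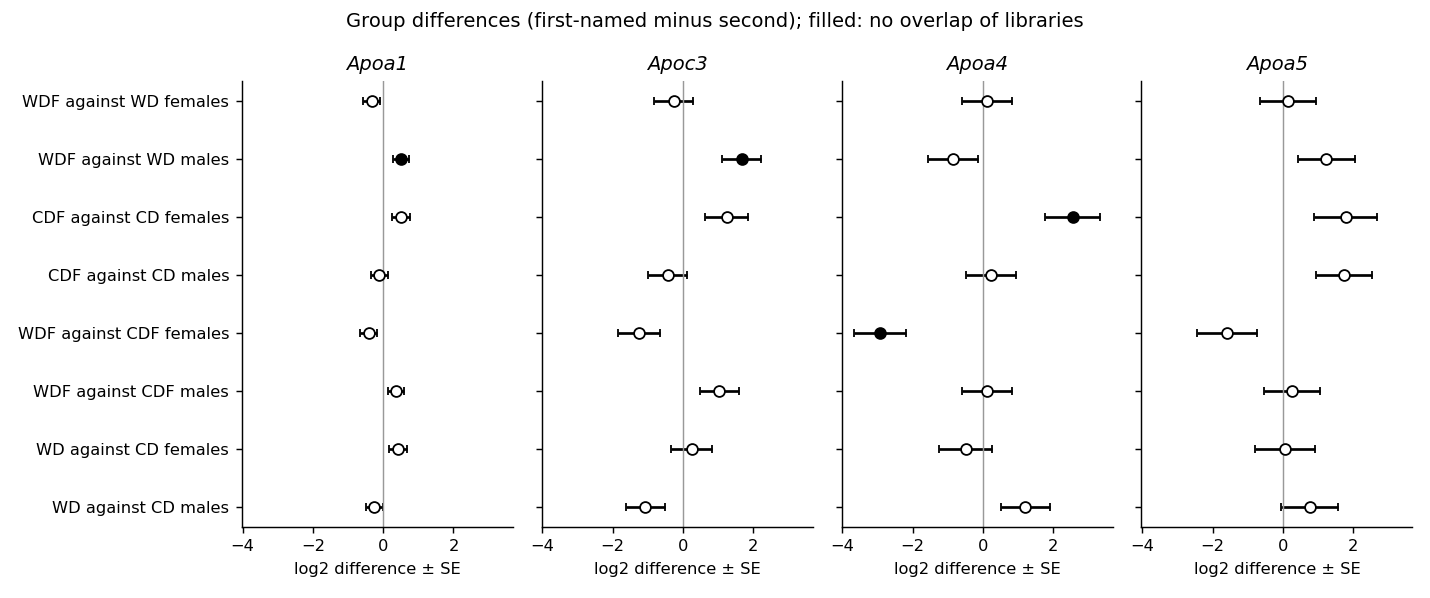
Log2 differences with SE (bars) of the 4 genes for the 8 comparisons between 2 groups, the group named before "against" minus the other; filled points mark comparisons whose libraries did not overlap. Filled points stand at 0.51 (Apoa1) and 1.66 (Apoc3) for WDF against WD males and at 2.55 and -2.93 for Apoa4.

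The 4 neighbours did not vary as a block. Over the 38 libraries Pearson's r of log2 values was 0.81 between Apoa1 and Apoc3, and 0.79 once group means were removed, with a Spearman rho of 0.79. Apoc3 and Apoa5 had r = 0.50 (0.50 with group means removed, rho 0.44). Apoc3 and Apoa4 had r = 0.39 (0.44 and rho 0.45), and Apoa4 and Apoa5 r = 0.33 (0.18 and rho 0.18). Apoa1 was close to unrelated to both Apoa4, at r = 0.12 (0.08 and rho 0.20), and Apoa5, at r = 0.16 (0.05 and rho 0.19). No p is given for these values, which share libraries, a scaling factor and depth. Without the 2 libraries farthest from the median of Apoa1, its r with Apoc3 was 0.75. In females alone, Apoa4 and Apoa5 had r = 0.64, in males alone -0.02, and this difference was not tested. With the 2 excluded libraries put back, in which Apoa1, Apoc3 and Apoa5 were low, Apoa1 and Apoa5 rose to r = 0.77 and Apoc3 and Apoa5 to 0.82.

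**Figure D3:**
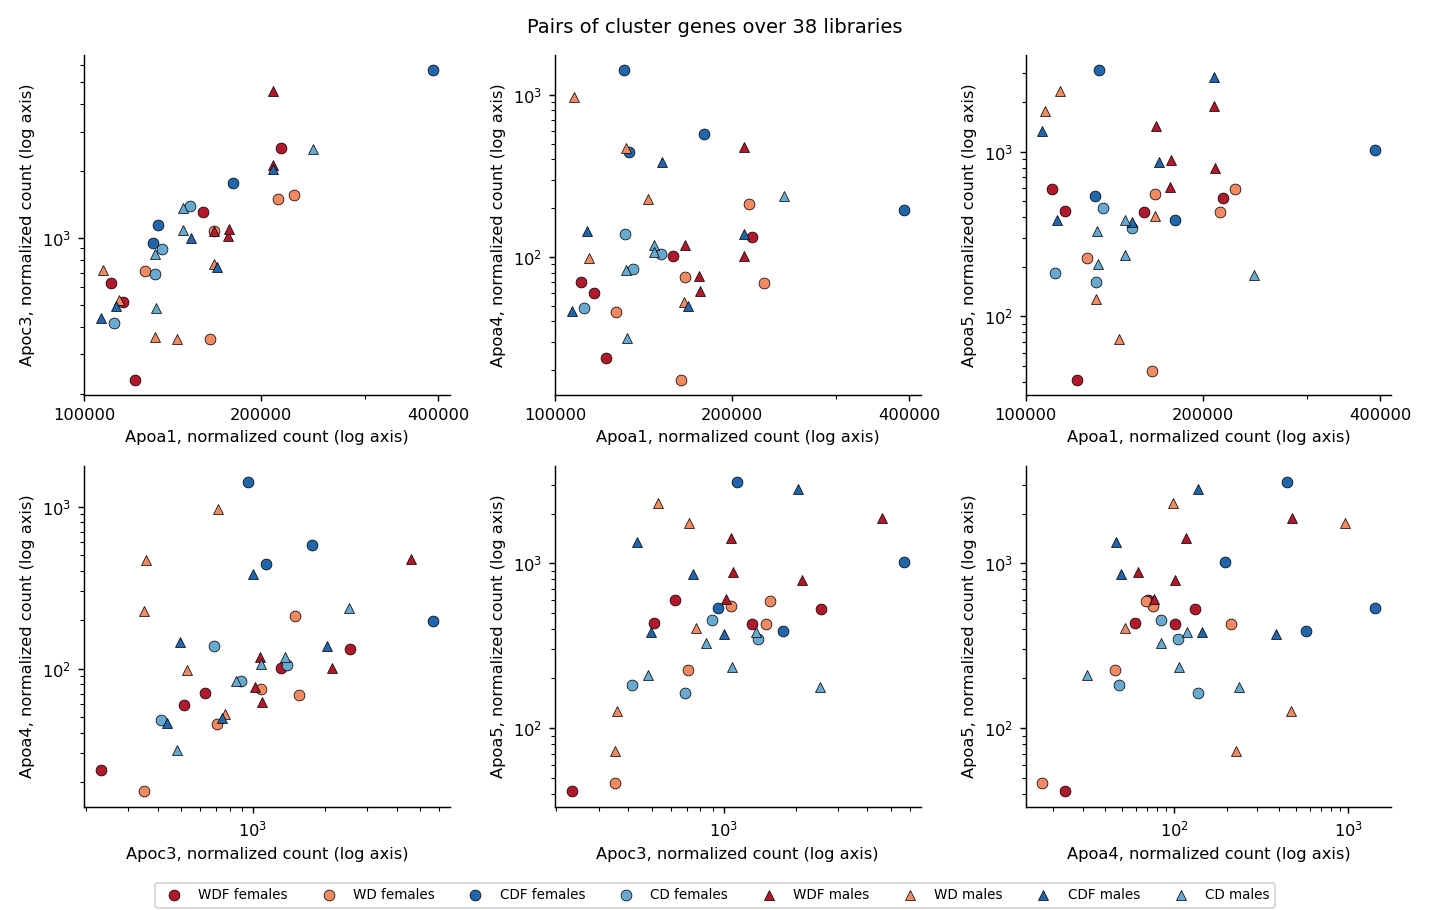
Each pair of the 4 genes over 38 libraries, normalized counts on log axes, with colours for diets, circles for females and triangles for males. Apoa1 and Apoc3 (r = 0.81) fall along a line, whereas Apoa1 with Apoa4 (r = 0.12) or Apoa5 (r = 0.16) does not.

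Apoa1 moved with a measure taken over all genes of a library. For each library a length tilt was computed, the median log2 deviation of the 3843 shortest genes (up to 2409 exon bases) minus that of the 3841 longest (at least 6446). With group means removed, r between this tilt and Apoa1 was 0.91, between tilt and Apoc3 0.63, and for Apoa4 and Apoa5 it was 0.02 and -0.16. The tilt ran from -0.63 in WD male 5 to 1.31 in CDF female 4, which also had the highest Apoa1. Apoa1 has 1236 exon bases and Apoc3 1014, so both are among the shortest genes, as is Apoa4, with 1815, although it did not follow the tilt. Normalized total and Apoa1 had r = 0.91. Of all tested genes, 24.4% had r of at least 0.5 with Apoa1, compared with 13.6% for Apoc3, 1.61% for Apoa5 and 0.319% for Apoa4. With the tilt removed as well, an alternative chosen after seeing the data, r was 0.66 for Apoa1 and Apoc3, 0.77 for Apoc3 and Apoa5, 0.54 for Apoc3 and Apoa4, and 0.47 for Apoa1 and Apoa5. With the tilt as a covariate of the fit, the WDF minus WD difference of males was 1.33 for Apoc3 and 0.31 for Apoa1. The CDF minus CD difference of females was then 0.53 for Apoc3 and 0.09 for Apoa1, and WDF minus CDF in females -0.56 and -0.0042. The western minus control folic acid difference of females was -0.38 for Apoc3 and -0.17 for Apoa1 in that fit. The part of the tilt in these differences was not tested further.

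Each gene had its own nearest genes. Closest to Apoa1 were Ndufb5, a subunit of mitochondrial complex I (r = 0.96 with group means removed), Stard10, a phospholipid carrier (0.95), Apoc4, an apolipoprotein gene on another chromosome (0.95), the securin gene Pttg1 (0.94) and Hint2, a mitochondrial hydrolase (0.94). Apoc3 ranked only 1238th among 15376 genes by r with Apoa1, while Apoa1 ranked 26th by r with Apoc3. Closest to Apoc3 were Asgr1, a subunit of the asialoglycoprotein receptor (0.89), Pemt, which makes phosphatidylcholine by methylation (0.87), the lysophospholipase gene Pnpla7 (0.86), Fetub, which encodes a plasma protein (0.84), and Asl of the urea cycle (0.83). In Asgr1 the 38 libraries spanned 1069 to 10510 normalized counts, with WDF female 2 lowest and CDF female 4 highest, the same libraries that were lowest and highest in Apoc3. For Apoa1 and Apoc3, r with its nearest gene was 0.94 and 0.88 without CD female 5 and CDF female 4.

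Closest to Apoa4 were genes of the absorbing gut surface. They were Alpi, intestinal alkaline phosphatase (r = 0.84 with group means removed), Meltf, melanotransferrin (0.79), Fabp2, the intestinal fatty acid carrier (0.75), Mamdc4, an endocytic protein of neonatal gut described in rats (0.74), and Lct, lactase (0.73). All were scarce: Alpi had a median of 0 and a highest value of 61.8, Meltf 1.97 and 67.4, Lct 6.48 and 99.97, Mamdc4 12.6 and 70.3, and Fabp2 66.5 and 347. CDF females 1 to 4 had 347, 146, 182 and 152 of Fabp2, against 63.0, 61.0, 57.1 and 52.5 in CD females 1, 2, 3 and 5. Those groups did not overlap. WD male 4, with 964 of Apoa4, had 190 of Fabp2, 96.7 of Lct and 33.3 of Alpi. Over the libraries with all groups pooled, Apoa4 and Fabp2 had r = 0.83 and rho = 0.82, and r = 0.80 without the 2 libraries farthest in Fabp2. CDF female 4 was an exception among CDF females, with 0 of Alpi and of Meltf and 3.52 of Lct beside 196 of Apoa4.

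Of 14 intestinal marker genes, 10 were in the table and 8 passed the filter, and 5 of those 8 had r of at least 0.5 with Apoa4, namely Fabp2, Lct, Muc13 (0.59), Lgals4 (0.51) and Cdh17 (0.51). The share of all genes was 0.319%. Against Apoa1, Apoc3 and Apoa5 the list had median r of -0.22, -0.04 and -0.06, against 0.51 for Apoa4 and 0.00 for all genes with Apoa4. Cdx2, the transcription factor that defines intestinal epithelium, was listed at 0 in 19 of 38 libraries and reached 5.64. It did not pass the filter, and its r with Apoa4 was 0.51. The summed 10 markers were 3369 to 13437 in CDF females, 3090 to 3903 in CD females and 2549 to 5218 in WDF females. Tff3, with a median of 3096, and Krt20, with 586, made up most of those sums and had r of -0.11 and 0.10 with Apoa4. Without Tff3 and Krt20 the sum was 346 to 783 in CDF females, 192 to 314 in CD females and 172 to 305 in WDF females. It was 149 to 557 in WD males. On the log2 scale with group means removed, this smaller sum had r = 0.83 with Apoa4. Visceral endoderm and yolk sac markers, 8 genes, summed to 60252 to 82126 in CDF females, against 52332 to 69138 in CD females. Most of that sum was Ttr, a hepatocyte marker too, and Apom, with medians of 55901 and 6456. The 6 that passed the filter had a median r of 0.01 with Apoa4. The part of other cell types in the Apoa4 values was not tested.

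Closest to Apoa5 were Glt1d1, a predicted glycosyltransferase (r = 0.84 with group means removed), G6pc, the catalytic subunit of glucose-6-phosphatase that releases glucose from the liver (0.80), Eif4ebp3, a translation repressor (0.80), Hsd17b6, a steroid dehydrogenase (0.79), and Tes, a focal adhesion protein (0.78). Among 16 regulators of the cluster or of liver metabolism, Creb3l3 (0.73), Nr0b2, the repressor SHP (0.68), and Rora (0.59) had r above 0.5 with Apoa5. Of all genes, 1.61% had r of at least 0.5 with Apoa5. Creb3l3 encodes CREBH, which acts in mouse liver on several genes of triglyceride metabolism. Its level moved little, between 815 and 1934 normalized counts. Apoa5 and Creb3l3 with groups pooled had r = 0.68 and rho = 0.51, and r = 0.51 without the 2 libraries farthest in Creb3l3.

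Some of those values rest on few libraries. The 4 libraries lowest in Apoa5, namely WDF female 2 (41.3), WD female 5 (46.6), WD male 2 (72.5) and WD male 3 (127), were also the 4 lowest of 38 in Apoc3, at 231, 351, 352 and 359. They were the 4 lowest in Creb3l3 as well, at 866, 815, 931 and 1162. The same held for G6pc, Glt1d1 and Cyp4a14, a fatty acid hydroxylase gene controlled by PPARα (Cyp4a14 at 41.4, 73.0, 72.9 and 132, beside a median of 547). G6pc and Glt1d1 were named as genes nearest to Apoa5 in these same libraries, so their low values here are partly built in. Asgr1, nearest to Apoc3, was at ranks 1, 7, 11 and 2 from the lowest, and Nr0b2 at ranks 1, 10, 8 and 3. All 4 libraries came from dams on 45% fat, as did 20 of the 38, and 3 of the 4 were on 2 mg/kg folic acid. These 4 were picked by their low values and the labels give no litter, so nothing about diet is read from them. Apoa1 in the same libraries was 121988, 163836, 143924 and 131794, at ranks 8, 23, 17 and 12 from the lowest. Apoa4 was lowest in WD female 5 and WDF female 2 (17.5 and 23.7), yet at ranks 30 and 34 in WD males 2 and 3 (226 and 466.4). Alb was at ranks 25, 5, 4 and 16 from the lowest, between 910362 and 1234910. Leaving those 4 out, a choice made after seeing the data, gave r = 0.22 for Apoc3 and Apoa5, while Apoa1 and Apoc3 had 0.89. With groups pooled, Apoa5 then had r = 0.30 with Creb3l3, 0.39 with Cyp4a14 and 0.72 with Glt1d1, against 0.68, 0.71 and 0.85 in all 38. Leaving out 1 end of a range also narrows that range. The other 3 WD males held 530 to 764 of Apoc3, below the lowest WDF male at 1020.

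**Figure D4:**
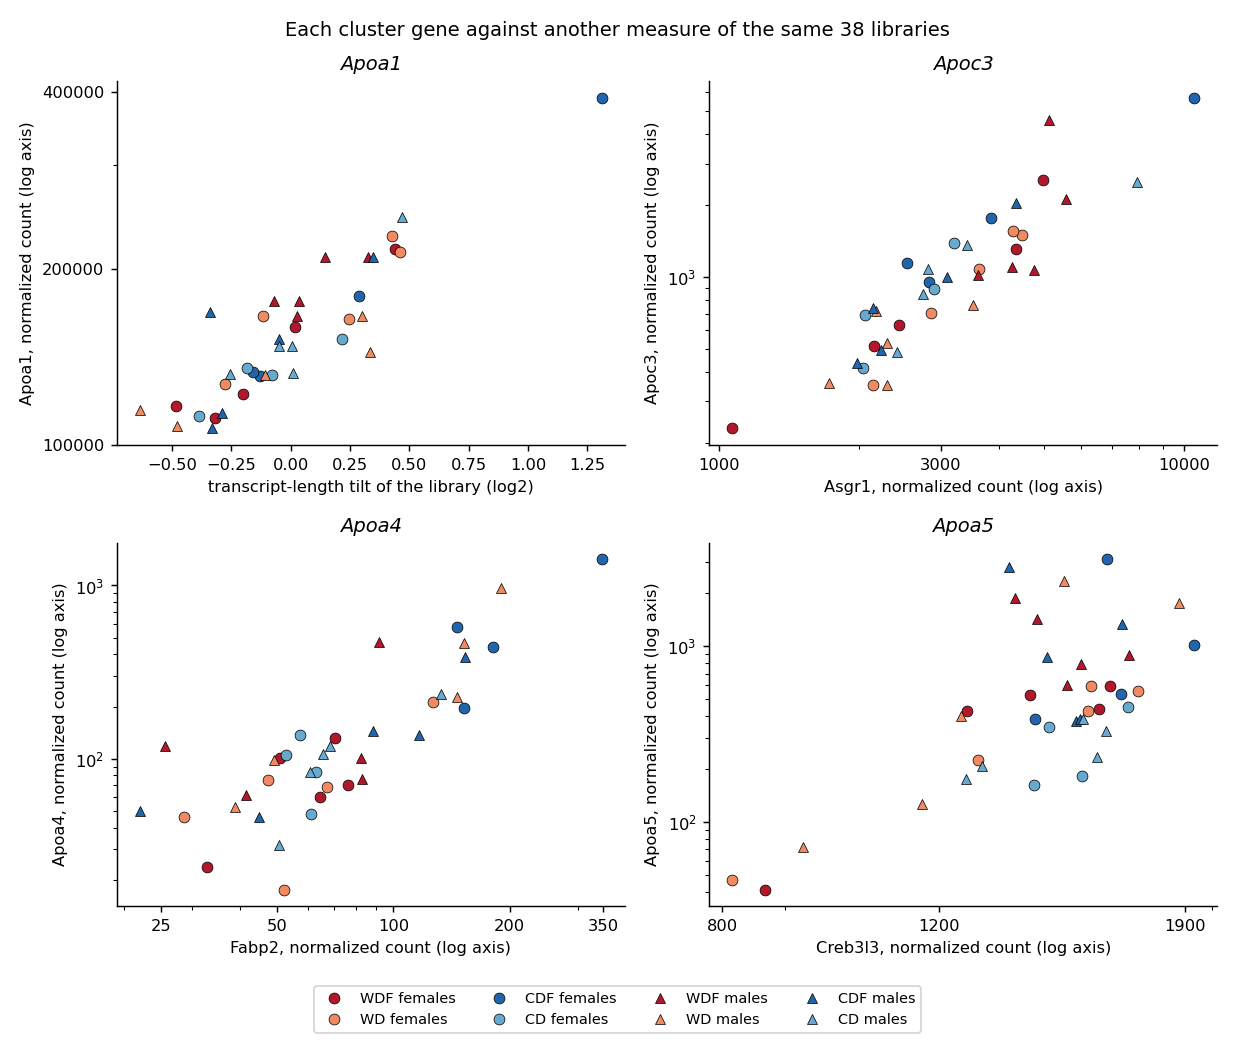
Each gene over 38 libraries (normalized counts, log axes) against a measure that moved with it: Apoa1 against the library's length tilt (log2, linear axis), Apoc3 against Asgr1, Apoa4 against Fabp2 and Apoa5 against Creb3l3; colours are diets, circles females, triangles males. Pearson's r of the log2 values is 0.90, 0.91, 0.83 and 0.68, and 4 libraries at the lower left carry much of the last.

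Other apolipoprotein genes followed Apoa1 and Apoc3 rather than Apoa4 and Apoa5. Of 10 tested, 9 had r of at least 0.5 with Apoa1, 8 with Apoc3, 0 with Apoa4 and 0 with Apoa5, with medians of 0.71, 0.68, 0.09 and 0.08. By r with the mean of the 4 genes, Apon, Apof and Apoc4 led the list, at 0.77, 0.77 and 0.78 with Apoc3. Apob, the large core protein of triglyceride-rich particles, ran against Apoa1 at -0.70, while Apoa2 of high-density lipoprotein had 0.92 and Apoc1 0.93; these were named after their values were seen. Of all tested genes, 24.4% were at 0.5 or above with Apoa1, 13.6% with Apoc3, 0.319% with Apoa4 and 1.61% with Apoa5. With Apoa1, 26.1% of all genes lay at -0.5 or below, so counts on either side of Apoa1 in the short lists that follow are given as values only. Apoa1 also had r = 0.91 with the length tilt of the library (group means removed). The tilt was not removed from the r of any list gene, here or below, and its part in those values was not tested. Of 10 genes for triglyceride clearance, Gpihbp1, which holds lipoprotein lipase on the capillary wall, had 0.93 with Apoa1, Lpl, the lipase itself, 0.54, and Lipc, hepatic lipase, 0.13 but 0.51 with Apoa5. Of 8 genes for high-density lipoprotein formation, 0 reached 0.5 with Apoa1 and 3 lay at -0.5 or below, namely the lipid exporter genes Abca1 (-0.87) and Abcg1 (-0.65) and the receptor gene Scarb1 (-0.55). Lcat, which esterifies cholesterol on the particle, had 0.32, Pltp, the phospholipid transfer protein, 0.10, and Bmp1, a protease that processes ApoA-I, -0.32. Among 12 genes for assembly of triglyceride-rich particles, 3 reached 0.5 with Apoa1 and 3 lay at -0.5 or below, Mia2 (-0.82), Sec23a (-0.80) and Mttp, which loads lipid onto ApoB (-0.73), with a median of 0.14. Dgat1, which makes triglyceride, had 0.79 with Apoa1, Cideb 0.57, and Tm6sf2 0.16 with Apoa1 but 0.44 with Apoa4.

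PPARα and CREBH targets had their highest median r with Apoa5. Of 16 tested, 15 had a positive r with Apoa5, with a median of 0.42, beside 0.00 with Apoa1, 0.26 with Apoc3 and 0.20 with Apoa4. Cyp4a14 (0.74) and Cyp4a10 (0.57) were among the 5 at 0.5 or above, as was Creb3l3, which is also counted with the regulators. Cyp4a14 and Cyp4a10 are related genes of 1 family, and whether they share short reads was not tested. Of all genes, 1.61% were at 0.5 or above with Apoa5, and 7679 of 15376 had a positive r. Without the 4 libraries lowest in Apoa5, r with groups pooled fell from 0.71 to 0.39 for Cyp4a14 and from 0.68 to 0.30 for Creb3l3. The 3 closest to the mean of the cluster, the lipid droplet gene Plin2, the carnitine carrier gene Slc25a20 and the fatty acid carrier gene Fabp1, had r of 0.73, 0.71 and 0.54 with Apoc3. Regulators of the cluster did not share a direction with Apoa1: Nr1h3, which encodes the oxysterol receptor LXRα, had 0.85, Hnf4a -0.81 and Rxra -0.66. Nr0b2 was the only 1 of 16 regulators at 0.5 or above with Apoa4, at 0.56.

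Genes on either side of the cluster differed in their relation to it. Of 10 neighbours, the nearest, Zpr1 and Sik3, had r of 0.78 and -0.42 with Apoa1 and 0.34 and 0.20 with Apoa5. With Apoc3, Zpr1 and Tagln, a smooth muscle gene, both had 0.76, near the 0.79 of Apoa1 and Apoc3. Tagln (0.75), Bud13 (0.66) and Rnf214 (0.60) were also above 0.5 with Apoa1, and Bace1 (-0.85), Pcsk7 (-0.73), Pafah1b2 (-0.70) and Cep164 (-0.55) were below -0.5. Sidt2 had -0.50. None of the 10 reached 0.5 with Apoa4 or Apoa5, where the highest were Cep164 at 0.24 and Zpr1 at 0.34.

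**Figure D5:**
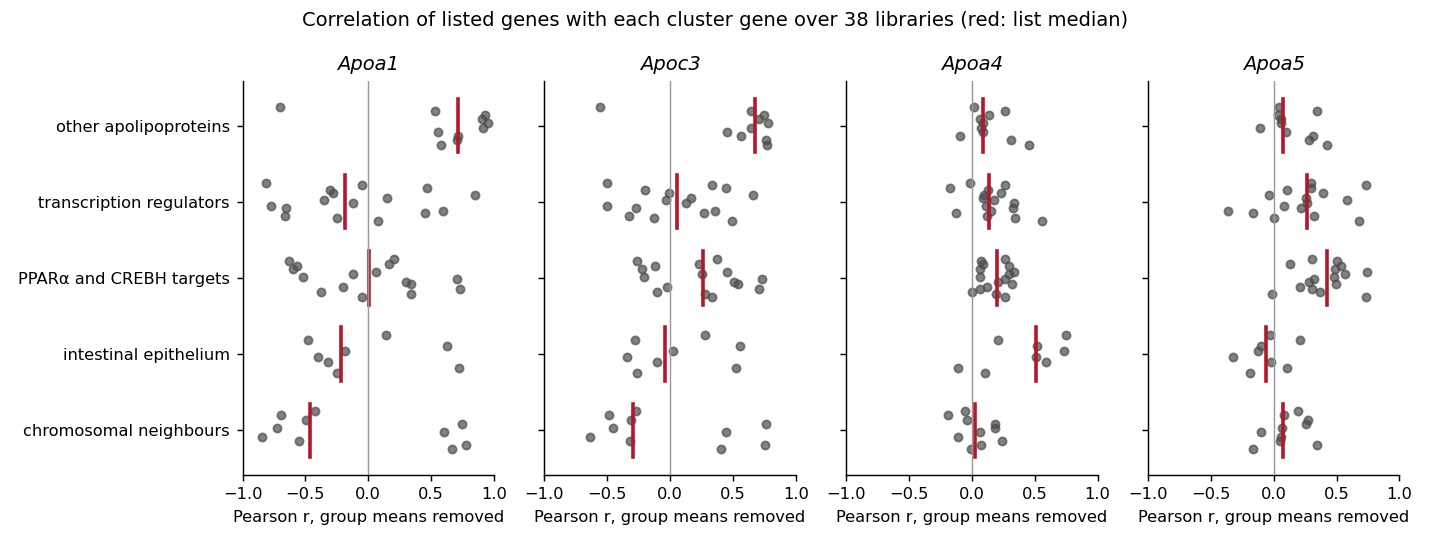
Pearson's r (group means removed, 38 libraries) between each gene of 5 lists, as points, and each of the 4 cluster genes, with the list median as a red line. Other apolipoproteins have a median of 0.71 with Apoa1, intestinal genes 0.51 with Apoa4, and PPARα and CREBH targets 0.42 with Apoa5.

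Across the diets, lists moved as follows beside the cluster. In WDF against WD males, where Apoc3 and Apoa1 were higher, all 10 other apolipoproteins and all 16 PPARα and CREBH targets had positive differences, with medians of 0.49 and 0.35, beside 0.01 for all genes. None of them passed (0.0% of all genes did), and 5 and 6 had an unadjusted p under 0.05, where 8.81% of all genes had. Asgr1 averaged 4663 ± 758 in WDF males and 2404 ± 665 in WD males (SD, n = 5 each). In CDF against CD females, where Apoa4 was higher, 7 of 8 intestinal genes and 9 of 10 apolipoproteins had positive differences, with medians of 0.64 and 0.40, beside -0.03 for all genes, and none passed. In the 32 libraries of at most 1000 Sftpc all 8 intestinal genes had positive differences, with a median of 0.70, while only 6 of 10 apolipoproteins did, with a median of 0.04. CDF females 1 and 3 are the only CDF females in those 32. Fabp2 averaged 207 ± 94.9 in CDF females and 58.4 ± 4.64 in CD females (SD, n = 4 each). In WDF against CDF females, which uses the same CDF libraries, all 8 intestinal genes had negative differences, with a median of -0.53. Upper-quartile, trimmed-mean and median-ratio scaling left these counts as they were in the 3 comparisons named, and the median of all genes moved by less than 0.1 under each. Median-ratio scaling could change little, since its factors over the 40 libraries are all 1 (to 3 digits). Lung epithelium markers moved in the same 3 comparisons. All 8 were higher in WDF than in WD males (median 1.89) and in CDF than in CD females (median 0.48). In WDF against CDF females all 8 were lower, with a median of -2.65, as were 9 of 10 other apolipoproteins, with a median of -0.48. In the 32 libraries 3 lung markers passed the filter, with medians of 0.42, -0.77 and 0.55 in these comparisons. The only list gene past the threshold in any comparison was Pltp, lower with 45% than with 10% fat by 0.82 ± 0.15 on the log2 scale (limma, adjusted p = 0.0211), at 589 ± 146 (SD, n = 20) against 1088 ± 386 (SD, n = 18). Its adjusted p was 0.0845 in the 32 libraries, 0.07 with a replicate block, 0.0558 without CD female 2 and 0.0584 without CDF female 3.

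The CDF female values depended on which libraries were kept. Without CDF female 4 and CD female 5, the CDF minus CD difference of females was 3.10 for Apoa4, 1.86 for Apoa5, 0.97 for Apoc3 and 0.22 for Apoa1. With the 32 libraries of at most 1000 Sftpc it was 3.26, 2.44, 0.72 and 0.07. Of these 2 groups, the 32 keep only CDF females 1 and 3 and CD females 1, 2 and 3. CDF female 1 had the highest Apoa4 of the 38 libraries and CDF female 3 the highest Apoa5. The male differences for WDF against WD were 1.57 for Apoc3 and 0.47 for Apoa1 in those 32. Lung epithelium markers, 8 genes, summed to 21.4 to 29054 in CDF females, against 20.7 to 39508 in CD females, and to 27.6 to 8457 in WDF males, against 14.7 to 57.0 in WD males. With Apoa4 the 8 genes had a median r of -0.08, with Apoa1 0.41 and with Apoc3 0.34. By r with the mean of the 4 genes the closest were Sftpd, Ager and Nkx2-1, at 0.52, 0.52 and 0.40 with Apoa1, and Nkx2-1 was listed at 0 in 26 of 38 libraries. Erythroid genes divided in their relation to Apoa1, with Hbb-bt at 0.79 and Alas2 at 0.75, and all 6 had negative r with Apoa5. Hepatocyte markers had a median r of -0.43 with Apoa1, -0.24 with Apoc3 and 0.22 with Apoa5, with Trf at 0.58 and Cps1 at -0.45 against Apoa1. Heart, pancreas and kidney markers that passed the filter, 3, 2 and 2 genes, had highest r of 0.51, 0.31 and 0.47 with any of the 4. The part of these cell types in the results was not tested.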

How the data were processed

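Polyadenylated RNA of fetal livers was sequenced, and 40 libraries in 8 groups were read from 1 deposited table. Its values are a signal deposited by the authors and were taken as read counts divided by a size factor per library, since they are not whole and the median-ratio factors recomputed from them are all 1 (to 3 digits). Of low values, 29.1 to 64.0% came out whole when scaled (tolerance 0.1), so read counts were not recovered and no counting interval is given. Normalized totals were 15.0 to 27.8, in units of 1000000, in the 38 libraries used, and precision rests on the number of libraries. The authors' 4 deposited comparison tables list mean values, log2 fold changes, their standard errors (treated as a score) and p-values with adjusted p-values, per the file headers. The submitters' processing notes name Trimmomatic 0.39, STAR 2.7.3a, Salmon 1.3.0, DESeq2 1.24 and the mm10 build, with no role given. One CDF column lacks the sex letter and was taken as the remaining female title.

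All tests used limma 3.58.1 in R 4.3.3 on log2(value + 1), with 1 mean per group, trend and robust moderation, and Benjamini-Hochberg adjustment over the 15377 genes with at least 10 in at least 5 libraries; the script was tested on simulated data. Tables and figures used Python 3.11.15, pandas 2.3.3, numpy 2.4.6 and matplotlib 3.10.9. No 2 libraries were duplicates (highest r 0.982). The 4 genes, the gene lists and the tests were chosen with earlier results of these data known. Named beside the 4 genes are the 5 nearest to each by r with group means removed, list genes past the threshold, the 3 of a list closest to the mean of the cluster, and all neighbours on the chromosome. Other list genes were named after their values were seen. Alternatives covered library sets, scaling, filters, pseudocounts, weights, the groups fitted, a replicate block, the threshold and single libraries, and 3 chosen after seeing the data (length tilt as a covariate, length tilt removed from correlations, and 4 libraries left out). Promoter windows came from RefSeq on GRCm38.p6, where 3 of the 4 genes were matched.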

Additional observations from a re-analysis of the deposited data

Results flagged for a closer look

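Among 32 groups of 4 or 5 libraries examined (4 genes in 8 groups), 2 held a library whose gap to its nearest neighbour exceeded Dixon's 95% critical value for the group's range, and chance flags about 1 in 20 groups. Apoa1 in CD male 4 was 244717 normalized counts, whereas the other 4 CD males held 132204 to 147412. Apoa4 in WDF male 3 was 474.09 normalized counts, whereas the other 4 WDF males held 61.8 to 118.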

How the results depend on the processing

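The 38 log2 differences of the 4 genes given in the text were computed under 53 other settings, and 1988 of 2014 values kept their direction and their side of the threshold. Library weights were the only setting that made any of them pass, in 4 cases. With all 40 libraries, WDF minus CDF females turned to 0.0041 for Apoa5, 0.14 for Apoc3 and 1.25 for Apoa1. In 32 libraries, with only CDF females 1 and 3 left of their group, it turned to 0.085 for Apoa1. Library weights turned WDF minus WD females to -0.19 for Apoa5 and -0.20 for Apoa4, and the western minus control folic acid difference of males to 0.998 for Apoa5. The length tilt as a covariate turned WDF minus WD females to -0.0056 for Apoa5 and 0.15 for Apoc3, and CDF minus CD males to 0.053 for Apoa1. Leaving out each library in turn gave -0.48 to 0.86 for Apoa5, -0.33 to 0.56 for Apoa4 and -0.70 to 0.16 for Apoc3 in WDF minus WD females, -0.21 to 0.56 for Apoa4 and -0.24 to 0.056 for Apoa1 in CDF minus CD males, and -1.15 to 0.10 for Apoa5 in the western minus control difference of males. These are differences below 1 SE, apart from those of WDF minus CDF females, and the cause was not tested.

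Genes called for 45% against 10% fat numbered 7, against 3 with all 40 libraries, 11 with 36 libraries, 11 with a pseudocount of 5, 486 with library weights, 68 with the length tilt, 22 at an adjusted p under 0.1, and 3 (without CD female 2) to 53 (without CDF male 2) when each library was left out. Library weights called 621 genes in WDF against WD males, 145 in WD against CD males, 241 in WDF against CDF males, 397 for the western against control folic acid difference of males and 579 for the sex difference of the folic acid effect on the western diet, each 0 without weights. Otherwise counts of 0 became 1 in WDF against WD males with 32 libraries, in WD against CD males with the length tilt and in WD against CD females with only the groups compared. Leaving out single libraries gave 0 to 2 genes in WDF against WD males, 0 to 8 in WDF against CDF males (8 without CDF male 2), and 0 to 1 in CDF against CD females, WD against CD males, WD against CD females, WDF against CDF females and the sex difference of the fat effect at 10 mg/kg.

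Replicate numbers did not pair the libraries: r of the deviations from group means was over 0.1 in 20 of 54 same-numbered pairs, with a median of -0.009. With the replicate block 2 genes were called for fat, Pltp had an adjusted p of 0.07, and no call of the 4 genes changed.

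Correlations between the 4 genes kept their sign, except Apoa4 and Apoa5 in males alone (-0.022, and 0.64 in females alone). With all 40 libraries r was 0.91 for Apoa1 and Apoc3, 0.33 for Apoa1 and Apoa4, 0.77 for Apoa1 and Apoa5 and 0.82 for Apoc3 and Apoa5. With group means and length tilt removed it was 0.66, 0.47, 0.77 and 0.54 for Apoa1 and Apoc3, Apoa1 and Apoa5, Apoc3 and Apoa5, and Apoc3 and Apoa4. Without the 4 libraries lowest in Apoc3 and Apoa5, it was 0.89 for Apoa1 and Apoc3 and 0.22 for Apoc3 and Apoa5. Apoa1 and Apoc3 had 0.75 without the 2 libraries farthest in Apoa1, Apoc3 and Apoa4 had 0.20 in males and 0.56 in females, and Apoc3 and Apoa5 had 0.68 in females. Leaving out single libraries moved none of these by more than the expected error of r.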
